A study of Homo sapiens with 24 samples.

Results

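The introns described here are those that stayed in the RNA under E7107 whether the cells carried normal or drug-resistant PHF5A. An intron was included when the unspliced share rose by 15 points or more from DMSO to E7107 at both its start and its end, in WT and in Y36C cells alike. It also had to have reads at both splice sites in all 24 samples and to be the most used splice at both sites in WT DMSO cells. Of 94189 introns that met the read and usage conditions (the eligible introns), 789 met the rise condition as well, which is 0.838%. The members were chosen by mean PSI itself, so their rises under E7107, on which they were selected, are given as a description, with no test.

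The cells were HCT116, a human colorectal carcinoma line, into which a lentiviral cDNA for PHF5A had been introduced under blasticidin selection. In WT cells the cDNA was normal, and in Y36C cells it carried the mutation named by the label, a change of tyrosine to cysteine. Each line was given DMSO, the solvent, or E7107 for 6 h, and poly(A)-selected RNA was sequenced. This gave 4 groups of 6 samples, called WT or Y36C by the cDNA and DMSO or E7107 by the treatment. The cDNA was added to parental cells, so the cell's own PHF5A was still present in all 4 groups. The paper reports that the mutant form made up most of the PHF5A mRNA in the Y36C line. The labels give no concentration of E7107 and do not say whether the 6 samples of a group were separate cultures, so p-values measure the spread between these samples, which may be technical.

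An intron is removed after the U2 snRNP settles on its branch point, close to the 3′ splice site. The SF3b complex of that particle, which includes SF3B1 and PHF5A, grips the branch point region, and E7107, a pladienolide derivative, binds in a pocket formed by these proteins and stops the particle from engaging the intron. An intron that is not removed can remain in a polyadenylated transcript, and some introns are left in a share of the transcripts of their gene even in unperturbed cells. Such partly retained introns are known to be often short and rich in G and C.

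The deposited unit is percent spliced in (PSI): at one splice site, the percentage of the reads there that follow a given path. For an intron the path of interest is the read that crosses the exon-intron boundary unspliced, and PSI below means the mean of this unspliced share at the 2 boundaries of an intron. A rise in PSI can come from more unspliced RNA or from less spliced RNA, and these cannot be told apart from a percentage.

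The sequences of 8 of the introns are shown, all shorter than the median of the 789 (218 bases), so that each can be read whole from splice site to splice site. RNF40 intron 18 (chr16:30783295-30783409, + strand), MED15 intron 15 (chr22:20939303-20939387, + strand), AMPD2 intron 11 (chr1:110170900-110170985, + strand), PCNX3 intron 4 (chr11:65384981-65385081, + strand) and YDJC intron 1 (chr22:21984051-21984139, - strand) are among the first 20 introns, at most 1 per gene, in a rank by the smallest of an intron's 4 rises (2 boundaries in 2 genotypes). ANAPC2 intron 9 (chr9:140074837-140074903, - strand) was the shortest of all, at 67 bases, and CDC25B intron 6 (chr20:3781513-3781617, + strand) and RBM5 intron 23 (chr3:50154605-50154682, + strand) lie in genes that the study follows by name. Coordinates are of GRCh37 (hg19), all 8 introns lie between coding exons of their gene in GENCODE, and the first and last 2 bases are in capitals.
RNF40 intron 18: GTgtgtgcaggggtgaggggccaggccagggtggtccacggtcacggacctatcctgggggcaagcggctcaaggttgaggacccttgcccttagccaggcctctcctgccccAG
MED15 intron 15: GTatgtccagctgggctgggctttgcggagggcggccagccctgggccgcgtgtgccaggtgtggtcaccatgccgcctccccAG
AMPD2 intron 11: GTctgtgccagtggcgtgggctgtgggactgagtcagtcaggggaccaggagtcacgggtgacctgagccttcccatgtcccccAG
PCNX3 intron 4: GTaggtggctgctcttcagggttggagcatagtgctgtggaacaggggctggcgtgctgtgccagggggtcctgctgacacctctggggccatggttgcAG
YDJC intron 1: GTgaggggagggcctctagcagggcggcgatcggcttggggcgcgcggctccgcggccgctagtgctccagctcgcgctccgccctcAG
ANAPC2 intron 9: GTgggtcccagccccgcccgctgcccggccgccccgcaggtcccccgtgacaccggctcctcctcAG
CDC25B intron 6: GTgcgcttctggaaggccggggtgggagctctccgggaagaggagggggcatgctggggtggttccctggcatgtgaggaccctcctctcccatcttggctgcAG
RBM5 intron 23: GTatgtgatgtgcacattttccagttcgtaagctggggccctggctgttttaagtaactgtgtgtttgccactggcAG
These introns ran from 67 to 115 bases, and their GC content was 67.8% in RNF40, 71.8% in MED15, 65.1% in AMPD2, 63.4% in PCNX3, 76.4% in YDJC, 80.6% in ANAPC2 and 66.7% in CDC25B. RBM5 intron 23, at 48.7%, was the one of these with fewer G and C than A and T.

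Splice sites with reads numbered between 281164 and 340081 per sample, lowest in the WT E7107 samples (median 282785.5), and 207244 sites had reads in all 24 samples. The deposited percentages hold no read counts, so the depth behind a single PSI is unknown. Epithelial markers had introns with reads throughout (EPCAM, CDH1, KRT8, KRT18 and KRT19), whereas VIL1 and CDX2, markers of intestinal epithelium, did not. No blood or endothelial marker had such an intron, and of 3 fibroblast markers 1, COL1A1, did.

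Under DMSO the 789 introns were already partly retained, and under E7107 their unspliced share rose in both genotypes and went higher in WT cells than in Y36C cells. Mean PSI over the introns was 18.1% ± 0.637 (SD, n = 6) in WT DMSO and 58.8% ± 1.04 (SD, n = 6) in WT E7107. In Y36C cells it was 19.2% ± 0.587 (SD, n = 6) with DMSO and 44.5% ± 0.674 (SD, n = 6) with E7107. The 6 samples of a group lay close together: from 17.4% to 19.2% with DMSO and 57.5% to 60.2% with E7107 in WT, and 18.4% to 19.9% and 43.4% to 45.01% in Y36C. The DMSO groups overlapped, and each E7107 group lay apart from every other group.

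**Figure D1:**
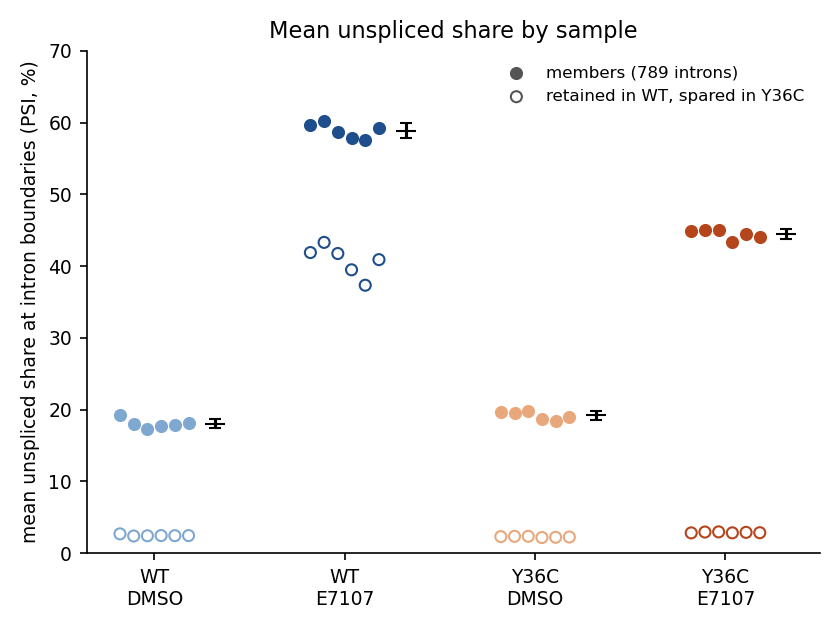
Mean unspliced share (PSI, %) per sample, with 6 points per group; filled points are the 789 introns, open points the 16023 introns that were retained under E7107 in WT cells and spared in Y36C cells, and the bar beside each group of filled points is the mean ± SD. The filled points rise in both genotypes, to 58.8% in WT and 44.5% in Y36C. The open points rise to 40.8% in WT and move from 2.27% to 2.89% in Y36C. The 2 sets were chosen by the size of these changes.

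Most introns retained in WT cells were not retained in Y36C cells. In WT, 21327 eligible introns (22.6%) rose by the required amount at both boundaries, and the 789 are 3.70% of these. In Y36C, 2084 (2.21%) did so, and the 789 are 37.9% of these. As a contrast, 16023 introns rose by 15 points or more at both boundaries in WT and moved by less than 5 points at both in Y36C, and these are called the spared introns below. Their mean PSI was 2.47% ± 0.108 with DMSO and 40.8% ± 2.10 with E7107 in WT, and 2.27% ± 0.0733 and 2.89% ± 0.0602 in Y36C (SD, n = 6 each).

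The rise was smaller in Y36C than in WT for 644 of the 789 introns and larger for 145. The median rise was 37.3 points in WT and 23.6 points in Y36C, and the median intron rose in Y36C by 67.0% of its rise in WT, with quartiles of 46.1% and 91.8%. PSI reached 50% or more under E7107 at 499 introns in WT (63.2%) and at 254 in Y36C (32.2%). The smallest of the 4 rises of an intron was at least 20 points at 400 introns, at least 30 at 77 and at least 40 at 15. At both boundaries, all 6 E7107 samples lay above all 6 DMSO samples for 542 of the introns in WT, where 25.8% of all eligible introns did so, and for 535 in Y36C, against 3.35%. For 422 introns this held in both genotypes, against 1.7% of eligible introns, and since the rule used these contrasts nothing is read from the counts.

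The median rises at the start and the end of the introns were close. The rule required a rise at both, so this closeness is a description. The median rise in WT was 37.6 points at the 5′ boundary and 37.5 points at the 3′ boundary, and in Y36C it was 23.3 and 23.9 points. The 2 boundaries of an intron rose by amounts within 5 points of each other at 453 introns in WT (57.4%) and at 524 in Y36C (66.4%). Across the 789 introns the DMSO levels of the 2 genotypes went together (Pearson's r = 0.920), the E7107 levels less so (r = 0.499), and the rises hardly at all (r = 0.111). These correlations are across introns of the same libraries, which are not independent replicates, and the rule bounded both rises from below.

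Ranked by the smallest of the 4 rises, the introns at the top lay in genes of several kinds, and the values of the leading ones follow by sample. HGH1 intron 4 (chr8:145194004-145194091), in a gene for a folding factor of translation elongation factor 2, had PSI from 25.6% to 47.2% (median 35.1%) in WT DMSO and from 91.5% to 99.0% (median 94.1%) in WT E7107. In Y36C it ran from 27.3% to 44.2% (median 33.7%) with DMSO and from 63.6% to 97.0% (median 90.3%) with E7107. Each E7107 sample was above each DMSO sample, and the E7107 samples of the 2 genotypes overlapped. HGH1 has a near-identical copy, FAM203B, whose intron 3 (chr8:145438925-145439119) also ranked among the first 20, and reads of the pair can be exchanged in alignment, so neither value belongs to 1 locus with certainty. In both genes introns 1 to 4 of 5 were members.

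The next introns in this rank are given by the roles of their genes, and no share of any role was tested. TSEN54 encodes a subunit of the tRNA splicing endonuclease, and its intron 7 (chr17:73517592-73517785) had PSI from 11.4% to 17.8% in WT DMSO and from 62.5% to 80.7% in WT E7107. In Y36C the same intron ran from 22.7% to 30.8% with DMSO and from 69.8% to 81.9% with E7107. Its DMSO samples did not overlap between the genotypes, while its E7107 samples did. TRMT2A encodes a tRNA methyltransferase, and PSI of its intron 8 (chr22:20101031-20101208) had medians of 22.5% and 85.6% in WT and of 33.6% and 80.2% in Y36C, DMSO first. ZNF598 encodes a ubiquitin ligase that senses collided ribosomes, and PSI of its intron 7 (chr16:2051702-2052206) had medians of 15.7% and 91.7% in WT and of 21.7% and 64.7% in Y36C. All 6 Y36C E7107 samples of ZNF598, at 59.5% to 68.5%, lay below all 6 WT E7107 samples, at 89.0% to 93.0%.

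Other introns of the first 20 lay in RNF40, KMT2B, MED15 and ZBTB17. RNF40, which with its partner RNF20 ubiquitinates histone H2B, had PSI at intron 18 from 4.45% to 11.3% with DMSO and 50.9% to 63.5% with E7107 in WT, and 8.15% to 13.7% and 56.1% to 69.0% in Y36C. The E7107 samples of the 2 genotypes overlapped at this intron. KMT2B, a histone H3 lysine 4 methyltransferase, had at intron 22 (chr19:36220198-36220867) PSI medians of 28.4% and 92.2% in WT and of 27.4% and 70.9% in Y36C. MED15, a subunit of the Mediator tail, had at intron 15 medians of 6.12% and 64.0% in WT and of 13.6% and 56.2% in Y36C. ZBTB17, a zinc finger transcription factor that binds MYC, had at intron 13 (chr1:16269234-16269558) medians of 7.45% and 94.3% in WT and of 14.5% and 58.5% in Y36C.

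The rest of the first 20 began with RAB17 and AMPD2. RAB17, a small GTPase of membrane traffic, had the longest of the leading introns, intron 4 with 1776 bases (chr2:238484124-238485899), with PSI medians of 35.3% and 83.6% in WT and of 33.3% and 77.0% in Y36C. AMPD2, which deaminates AMP, had at intron 11 medians of 20.5% and 65.5% in WT and of 18.9% and 62.5% in Y36C. RIN1, a RAS effector, had at intron 4 (chr11:66102970-66103080) medians of 9.59% and 71.1% in WT and of 16.1% and 55.6% in Y36C. PCNX3 intron 4 rose from a median of 11.3% to 88.4% in WT and from 8.23% to 51.0% in Y36C. CAMK2N2, an inhibitor of CaM kinase II, has a single intron (chr3:183978016-183978904), with medians of 11.3% and 62.4% in WT and of 9.34% and 49.3% in Y36C, and its samples were widely spread, from 31.2% to 73.2% in Y36C E7107. NEURL4 intron 25, YDJC intron 1, TEPSIN intron 2 and BTBD6 intron 2 had Y36C E7107 medians of 51.7%, 66.8%, 68.7% and 62.1%. The pseudogenes PKD1P6 (intron 16, 68.4%) and PKD1P5 (intron 24, 56.2%) were also in the first 20, and these belong to a family with near-identical copies.

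**Figure D2:**
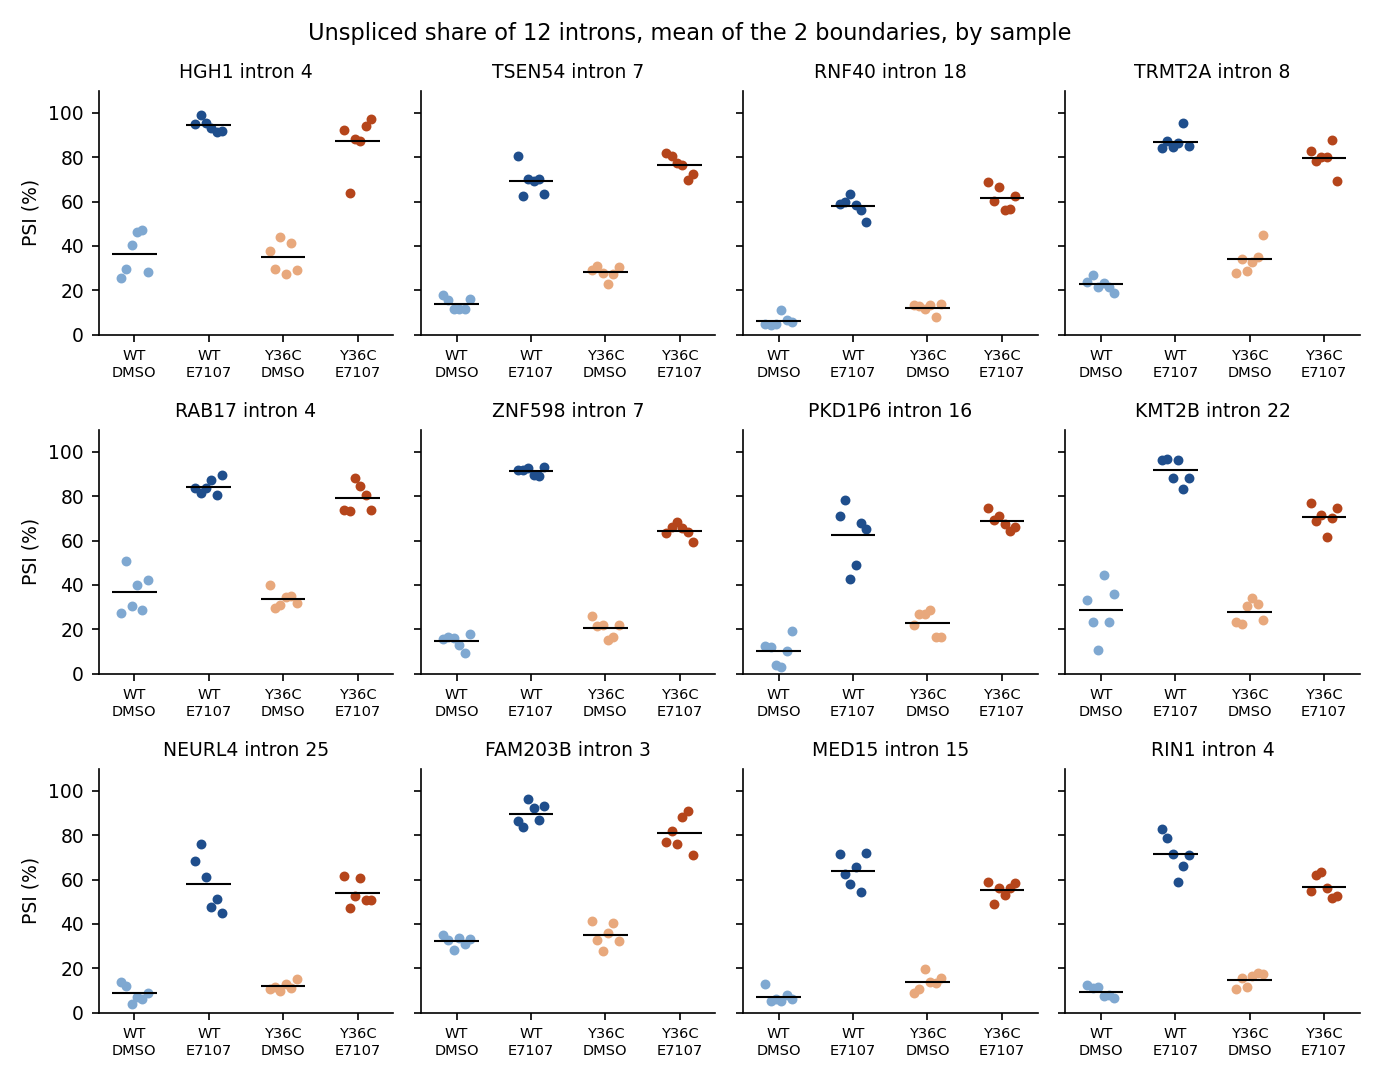
PSI (%, mean of the 2 boundaries) of the 12 introns with the largest rises, at most 1 per gene; each point is 1 of 6 samples of a group and the line is the group mean. At each of the 12 introns both E7107 groups lie above the DMSO groups, and at ZNF598 and KMT2B the Y36C E7107 points lie below the WT E7107 points.

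The introns retained in both genotypes were marked out by their level before the drug. Median PSI in WT DMSO was 14.2% over the 789, against 1.32% over all eligible introns and 1.31% over the spared introns. In WT DMSO, 253 of the 789 (32.1%) were at 20% or above, against 4.31% of eligible and 0.861% of spared introns. Only 69 (8.75%) were under 5%, against 80.3% and 88.4%. Read the other way, members were 0.0105% of the eligible introns under 2% in WT DMSO, 0.339% of those from 2% to 5%, 2.14% from 5% to 10%, 5.05% from 10% to 20% and 6.23% at 20% or more. Among the introns at 20% or more, all eligible introns had a median rise of 2.10 points in WT and 6.04 points in Y36C. The DMSO levels entered the rule through the rises, so these figures are a description. TNFRSF10B intron 5 (chr8:22885955-22886041), in the gene of death receptor 5, lay near the upper end, with PSI from 64.0% to 81.2% in WT DMSO and 64.5% to 73.4% in Y36C DMSO, and 93.0% to 98.4% and 80.4% to 88.2% under E7107.

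The introns were short. Their median length was 218 bases (quartiles 104 and 615), against 1381 bases for all eligible introns and 1173 bases for the spared introns. Introns under 110 bases made up 27.8% of the 789, 7.43% of eligible and 7.75% of spared introns. At the other end, 27 members were 3000 bases or longer, and the longest was PTBP2 intron 8 (chr1:97250811-97270355) with 19545 bases. PTBP2 encodes a splicing repressor of the polypyrimidine tract binding family, and PSI of this intron had medians of 35.1% and 74.6% in WT and of 23.7% and 45.4% in Y36C. The genes were compact too, with a median length of 16327 bases against 50387 for the genes of eligible introns, counted per intron.

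The introns were rich in G and C. Median GC content was 61.3%, against 43.97% for eligible and 43.1% for spared introns, and 55.1% of the 789 had 60% or more, against 14.3% and 12.002%. The share of eligible introns that were members was 0.155% at a GC content under 40%, 0.321% at 40% to 50%, 1.13% at 50% to 60%, 2.70% at 60% to 70% and 5.56% at 70% or more. Among introns that rose in WT, the same classes held 0.723%, 1.55%, 4.65%, 9.80% and 20.5% members. The GC content went with length but was not only that of short introns: among introns under 110 bases the members had a median of 68.2% and eligible introns 61.7%, and among introns of 300 to under 1000 bases the medians were 57.9% and 47.5%. Introns both under 300 bases and at 60% GC or more made up 41.4% of the 789, 8.999% of eligible and 7.43% of spared introns. Within the introns at 20% PSI or more in WT DMSO the members still had the higher GC content, with medians of 61.3% and 55.7%, and the smaller length, 223 against 466 bases.

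**Figure D3:**
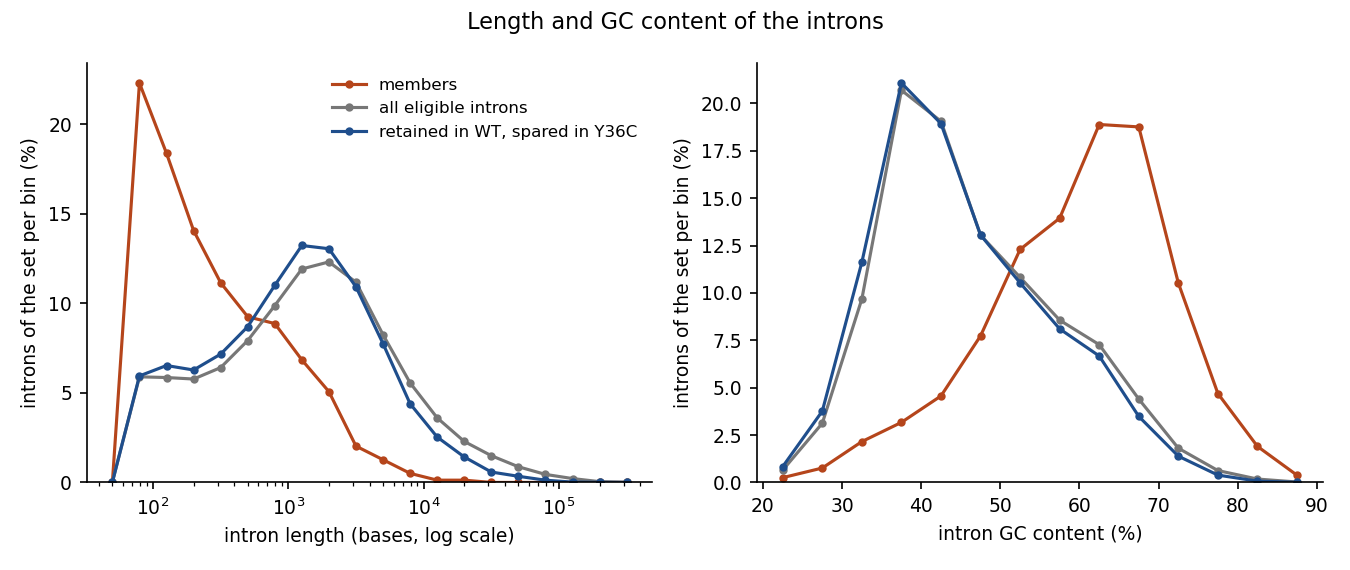
Distribution of intron length (bases, log scale, left) and intron GC content (%, right), as the percentage of each set per bin, for the 789 members, all 94189 eligible introns and the 16023 spared introns. The members lie at shorter lengths (median 218 bases against 1381 and 1173) and higher GC content (median 61.3% against 43.97% and 43.1%).

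**Figure D4:**
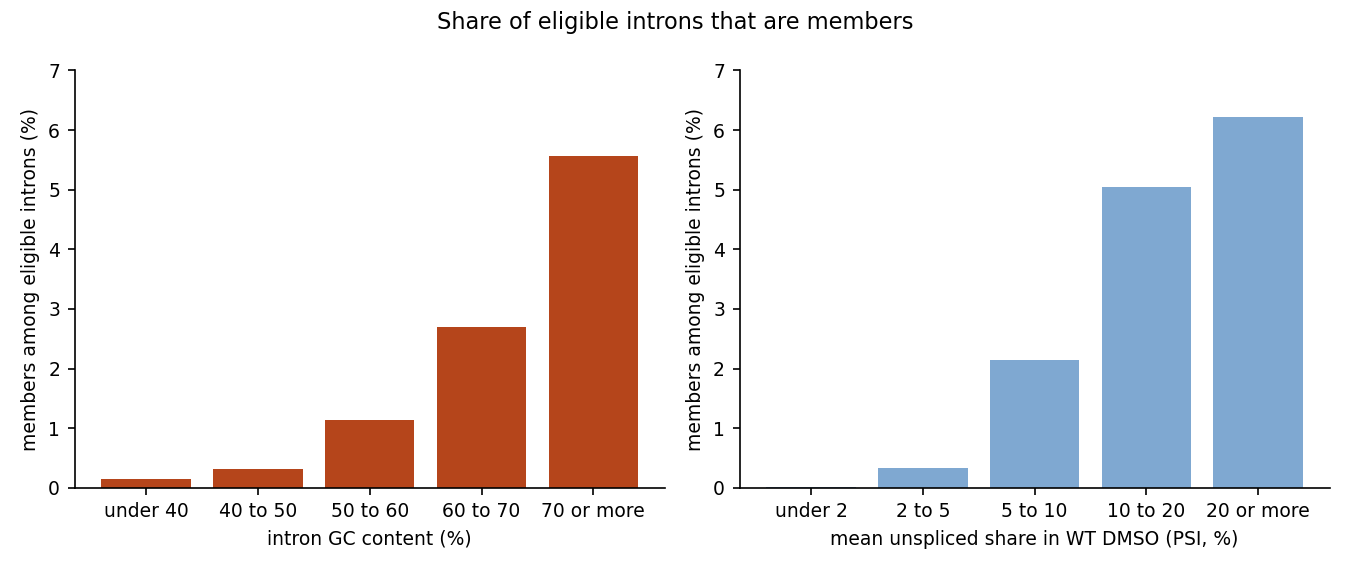
Percentage of eligible introns that are members, by intron GC content (left) and by mean PSI in WT DMSO (right). The share rises from 0.155% to 5.56% over the GC classes and from 0.0105% to 6.23% over the PSI classes, without any test, since DMSO values entered the rule.

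The exons beside them had like composition. GC content of the exon downstream had a median of 59.9%, against 48.6% for eligible introns, and at 56.0% of the members the intron had more G and C than that exon, against 34.1% of eligible introns. In the 16 bases from 20 to 5 bases before the end of the intron, where the polypyrimidine tract lies, the members had a median of 43.75% C and 31.25% T, whereas eligible introns had 25% C and 50% T, and C and T together had a median of 75% in both. A score of the 3′ splice site letters, summed as log2 of their frequency in eligible introns over 0.25, had a median of 7.02 in members and 9.53 in eligible introns. For the 5′ splice site the medians were 7.83 and 8.26. The third base of the intron was G in 54.1% of the members with GT and AG ends and in 34.9% of such eligible introns, and C stood before the closing AG in 81.3% and 62.8%.

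The branch point motif CTNAC, where N is any base, was found on the transcribed strand in the last 50 bases before the closing AG in 204 members (25.9%) and in 23.1% of eligible introns. The longer form TNCTNAC, which contains it, was found in 7.60% and 7.76%. These are letter matches, not mapped branch points. Length was a multiple of 3, which keeps the phase of the reading frame, in 33.7% and 33.4%.

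Features of the members were shared with introns that rose in Y36C without meeting the rule in WT. There were 1295 of these, with a median rise of 22.6 points in Y36C and 1.49 points in WT. Their median length was 295 bases, their median GC content 60.2% and their median PSI in WT DMSO 16.5%. These medians lay nearer to those of the 789 (218 bases, 61.3% and 14.2%) than to those of the spared introns (1173 bases, 43.1% and 1.31%).

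Reference annotation already held many of the introns as exonic sequence. A GENCODE exon of the same strand covered 303 of them whole (38.4%), against 9.36% of eligible and 7.30% of spared introns, and an exon of a transcript of the class retained intron covered 237 (30.04%), against 7.63% and 6.15%. In the 1295 introns that rose in Y36C without meeting the rule in WT, these shares were close, at 35.98% and 29.27%. Of the 789, 785 were annotated introns, in 487 genes. Protein-coding genes held 745, pseudogenes 35 and long noncoding RNA genes 5. PKD1 and its pseudogenes, which are near-identical and share reads, together held 18. Introns between coding exons made up 703, introns of the 5′ UTR 33 and of the 3′ UTR 6. By position 79.5% were internal, close to the 81.2% of eligible introns. A gene on the other strand overlapped 12.3% of members and 12.4% of eligible introns, and since the sources used here do not state whether the libraries keep the strand, reads of such pairs cannot be told apart. Named introns with such an overlap include RBM5 introns 6 and 23, TRMT2A intron 2, HDAC10 intron 17 and NRBP2 intron 3. RIN1 intron 4, BTBD6 intron 2 and the CAMK2N2 intron are others. Another protein-coding gene of the same strand overlapped HDAC10 intron 17 and NEURL4 intron 25. Chromosome 16 held 103 members, 2.21% of its eligible introns, followed by chromosome 22 with 1.42%.

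The introns clustered within genes. A single member was found in 326 genes, while 161 genes had 2 or more and together held 459. Neighbouring introns were often members as well, beside 0.838% of all eligible introns. Of 657 introns directly upstream of a member with reads in all samples, 149 (22.7%) were members, and of 640 directly downstream 149 (23.3%) were. A pair of adjacent members enters both counts, once from each side, so the counts are not separate observations. The 508 upstream neighbours that were not members had a median rise of 31.4 points in WT and 5.13 points in Y36C, and the 491 downstream neighbours 32.3 and 4.83 points, against 4.86 and 0.464 points over all eligible introns. These rises belong to the contrasts that the rule used, so they were not tested. Introns of 1 transcript share their RNA, so they are not separate observations.

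IFRD2, which encodes a translational repressor that binds idle ribosomes, held the most members, 8 of its 11 introns, and introns 6 to 11 formed the longest unbroken run, of 6. Intron 11 (chr3:50325703-50325839) had PSI from 21.0% to 26.2% with DMSO and 66.7% to 75.6% with E7107 in WT, and 22.8% to 28.03% and 56.6% to 65.8% in Y36C. The 7 other members of the gene began lower, with mean PSI from 3.43% (intron 9) to 11.6% (intron 6) in WT DMSO, and reached 20.5% (intron 10) to 39.0% (intron 6) in Y36C E7107. The 3 introns outside the rule, introns 1, 4 and 5, rose in WT by 28.7, 55.0 and 54.5 points and in Y36C by 0.325, 13.4 and 8.08 points. Intron 1 is 1537 bases long, while introns 4 and 5 are 83 and 166 bases.

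TUBGCP6, of the gamma-tubulin ring complex, had 7 members among 24 introns. Its intron 20 (chr22:50657327-50657496) had PSI from 12.3% to 20% in WT DMSO and 33.3% to 68.2% in WT E7107, and from 37.3% to 54.2% in Y36C DMSO and 71.9% to 90.1% in Y36C E7107. The Y36C samples lay above the WT samples of the same treatment without overlap. Introns 18 and 19, its upstream neighbours, differed from it and from each other: intron 18 had medians of 26.6% and 60.9% in WT and 28.7% and 59.0% in Y36C, and intron 19 had 4.21% and 45.7% in WT and 4.75% and 23.2% in Y36C.

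FBXW5, a substrate receptor of a cullin ubiquitin ligase, had 6 members among 8 introns, with Y36C E7107 medians from 30.5% (intron 7) to 50.5% (intron 6). Its other introns, 2 and 8, rose by 57.7 and 48.1 points in WT but by 7.81 and 9.27 points in Y36C. INTS11, the endonuclease of the Integrator complex, had 6 members among 16 introns, and at introns 6, 7, 8, 14 and 15 the mean PSI of WT E7107 and Y36C E7107 lay within 5.32 points of each other. Its intron 9 had 46.5% in WT E7107 and 29.7% in Y36C E7107 (medians). JAG2, a ligand of Notch receptors, had 6 members among 25 introns, spread over the transcript, and intron 20 (chr14:105613062-105613662) rose more in Y36C (31.0 points) than in WT (26.7 points). LRCH4 also had 6 members, with rises in Y36C from 19.4 points (intron 13) to 36.5 points (intron 11).

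Members per gene group are given beside 0.838% of all eligible introns, and no group was tested against that share. Cell cycle and mitosis genes had 22 of 654 introns (3.36%), in ANAPC2, AURKB, CDC25B, CDK11A, CDK11B, CDK9, CENPT and TUBGCP6. CDK11A and CDK11B are near-identical neighbours that share reads, and 7 of the 22 introns lie in TUBGCP6 alone. RNA polymerase II, Mediator and 3′ end processing genes had 12 of 775 (1.55%), 6 of them in INTS11 and the rest in MED11, MED12 and MED15. Kinase signalling genes had 6 of 565 (1.06%), in HRAS, MAP2K7, MAP3K11, MLST8 and PDPK1. Apoptosis genes had 2 of 158 (1.27%), in CASP2 and TNFRSF10B.

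Other groups had shares under 0.838% or no members, from small counts, and these were not tested either. Cytosolic ribosomal protein genes had 0 of 351 introns, glycolysis and TCA cycle genes 0 of 490, proteasome and ubiquitin genes 0 of 402 and aminoacyl-tRNA synthetase genes 0 of 506. DNA replication and repair genes had 5 of 1116 (0.448%), in FANCG and POLE. Translation factor genes had 2 of 496 (0.403%), in EEF2K and EIF3B, and export and nonsense-mediated decay genes 3 of 797 (0.376%), in NUP214, SMG9 and THOC1. Among genes of the splicing apparatus, U2 snRNP and U2AF genes had 1 of 228 (0.439%, U2AF1L4). SR proteins and kinases had 1 of 172 (0.581%, SRSF10). The hnRNP and RBM proteins had 2 of 363 (0.551%, both in RBM5), and other core factors 1 of 614 (0.163%, DHX38). The SR protein list had a median rise of 22.6 points in WT over its 172 eligible introns and of 0.0969 points in Y36C.

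Individual members of these lists showed a range of responses in Y36C. CDK9, the kinase of P-TEFb, had at intron 5 (chr9:130550665-130550822) PSI from 91.6% to 96.2% in WT E7107 and from 40.7% to 50.7% in Y36C E7107, with DMSO medians of 16.1% in both. MAP3K11, a kinase upstream of JNK, had at intron 3 (chr11:65375288-65375392) medians of 78.0% and 35.8% in WT and Y36C E7107. MLST8, a shared subunit of the mTOR complexes, had at intron 8 (chr16:2258615-2258759) PSI from 0.854% to 4.76% in WT DMSO and 8.09% to 11.9% in Y36C DMSO, and medians of 50.9% and 40.5% under E7107. ANAPC2, the cullin subunit of the anaphase-promoting complex, had at intron 9 medians of 9.59% and 53.1% in WT and 14.5% and 40.6% in Y36C. DHX38, a helicase of the second splicing step, had at intron 14 (chr16:72138031-72138384) medians of 17.1% and 39.98% in WT and 19.4% and 51.8% in Y36C.

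Of the genes that the study follows in its RNA sequencing, 2 held members. CDC25B, a phosphatase that activates cyclin-dependent kinases, had 1 among 15 eligible introns, although 13 of the 15 rose in WT. PSI of its intron 6 ran from 6.06% to 8.85% with DMSO and 41.2% to 55.2% with E7107 in WT, and 8.74% to 18.8% and 43.2% to 54.2% in Y36C. This intron rose by 41.8 points at the start and 43.0 at the end in WT, and by 41.1 and 25.2 points in Y36C. Of the reads spliced at its 3′ splice site, 59.9% used this intron in WT DMSO and 59.8% in WT E7107. In Y36C the shares were 67.0% and 41.5%. RBM5, an RNA-binding regulator of apoptotic splicing, had 2 among 24, all of which rose in WT: at intron 23 PSI ran from 79.0% to 90.3% in WT E7107 and 31.7% to 44.8% in Y36C E7107, and at intron 6 (chr3:50138039-50140515) from 55.1% to 76.0% and 36.04% to 59.2%. MCL1, EIF4A1 and CDK10 held none. The closest intron of CDK10, intron 3, missed the rule at a smallest rise of 14.2 points, while those of MCL1 and EIF4A1 had smallest rises of 2.40 and 2.83 points.

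A small number of members were of the U12 type, which is removed by the minor spliceosome, and that machine also contains SF3b. The start letters GTATCCT or ATATCCT were found in 7 of the 789 (0.887%), against 0.480% of eligible and 0.287% of spared introns. In the 1295 introns that rose in Y36C without meeting the rule in WT the share was 1.08%, so it was not particular to the members. The first 12 bases of 4 of these are shown because they depart from the starts above, with the 7 U12 letters in capitals, and the ZCCHC8 intron (chr12:122967892-122968006, - strand) is shown whole, with its first and last 2 bases in capitals, since it is short but has a GC content of 30.4%. The others are TEPSIN intron 2 (chr17:79210872-79211186, - strand), EXOSC2 intron 5 (chr9:133574782-133576253, + strand) and SRSF10 intron 2 (chr1:24301568-24305202, - strand), the last with AT and AC ends.
TEPSIN intron 2: GTATCCTtcctt
EXOSC2 intron 5: GTATCCTgcgct
ZCCHC8 intron 6: GTATCCTacata
SRSF10 intron 2: ATATCCTttctt
ZCCHC8 intron 6, whole: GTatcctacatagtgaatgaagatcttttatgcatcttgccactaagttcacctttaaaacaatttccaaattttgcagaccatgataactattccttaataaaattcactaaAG
TEPSIN, an accessory protein of the AP-4 coat, had PSI from 19.5% to 38.4% with DMSO and 85.7% to 93.7% with E7107 in WT, and 19.5% to 42.2% and 61.1% to 76.6% in Y36C. EXOSC2, a subunit of the RNA exosome, had medians of 12.2% and 68.4% in WT and 16.4% and 45.0% in Y36C. ZCCHC8, of the nuclear exosome targeting complex, had medians of 16.9% and 86.4% in WT and 20.6% and 36.6% in Y36C. SRSF10, a splicing regulator of the SR family, had nearly the same medians under E7107, 35.2% in WT and 33.3% in Y36C, from 13.4% and 14.04% with DMSO. The other members with these start letters lay in SMPD4BP, NAA60 and ZDHHC11.

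Without drug, few boundaries of these introns were called different between the genotypes. Y36C DMSO was compared with WT DMSO by a limma moderated test on the natural log odds of PSI, after 1 point (the offset) was added above and below the ratio, fitted over the whole table. Of the 1578 boundaries of the 789 introns, 1443 passed the filter on low PSI, and 10 were called higher and 1 lower in Y36C at an adjusted p of 0.05 or less, beside 0.0917% and 0.0802% of the boundaries of all eligible introns. No intron was called at both boundaries, among 694 tested at both, where 0.0219% of eligible introns were called higher and 0.00437% lower. At an unadjusted p under 0.05, 220 member boundaries were higher (15.2%) and 59 lower (4.09%), beside 5.57% and 6.03%, and the median difference in natural log odds was 0.103 at member boundaries and -0.0174 at eligible boundaries. The calls depended on the settings: 3 boundaries were called higher with an offset of 0.1 points in the log odds, 21 with 5 points, 27 with PSI itself and 0 with a replicate block, and any choice of 5 of the 6 replicate numbers left between 2 and 6. The rule also bounds the rises that share these DMSO samples.

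The 10 boundaries called higher with the offset of 1 point lay in 10 genes, and with a replicate block none of them was called. The smallest adjusted p was at the end boundary of an intron of RNF31 (chr14:24618086-24618614), a subunit of the linear ubiquitin ligase, where mean PSI was 12.3% in WT DMSO and 34.4% in Y36C DMSO (adjusted p = 0.00453, limma), while its start boundary missed the threshold (adjusted p = 0.478). At the start boundary of an intron of ARFRP1 (chr20:62333253-62333487), a small GTPase of the Golgi, the means were 7.88% and 29.0% (adjusted p = 0.00851). TUBGCP6 intron 20 followed with 13.2% and 40.8% at its start (adjusted p = 0.0165) and missed at its end (adjusted p = 0.0764). The others were in MLST8, GFUS, RPUSD1, KCTD13, LZTS2, TSEN54 and EIF3B, with adjusted p from 0.0247 to 0.0496. The single lower boundary, chosen after its value was seen, was in GTF2H2B (chr5:69717599-69717939), with 34.0% in WT DMSO and 2.63% in Y36C DMSO (adjusted p = 0.0288), and this gene has near-identical copies that share reads.

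Under E7107, PSI at these introns was more often lower than higher in Y36C cells when compared with WT cells. Of 1569 member boundaries tested, 741 (47.2%) were lower and 71 (4.53%) higher in Y36C E7107 than in WT E7107, beside 64.5% and 11.9% of the boundaries of eligible introns. The median difference in natural log odds was -0.570 at member boundaries and -1.35 at eligible boundaries. Both boundaries were called lower at 323 of 781 introns tested at both, beside 62.2% of eligible introns, and both higher at 20, beside 8.88%. The requirement of a rise in both genotypes bounds this difference, so the smaller difference than at eligible boundaries is a description of what was chosen.

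**Figure D5:**
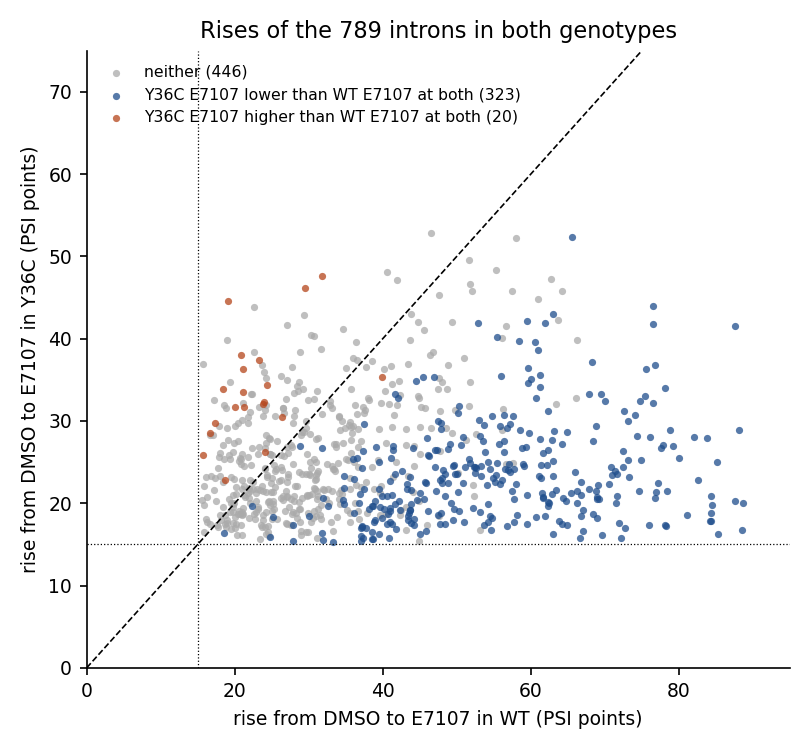
Rise in PSI from DMSO to E7107 (points) in WT (horizontal) and Y36C (vertical) for each of the 789 introns; the dashed line marks equal rises, the dotted lines the rule's threshold of 15 points, and colours the limma call between the E7107 groups at both boundaries. The 323 introns called lower in Y36C reach far to the right, and the 20 called higher lie at the left, above the dashed line or near it.

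The 323 introns called lower in Y36C E7107 had a higher level in WT E7107, with a median of 72.4% against 47.0% for the 446 introns called in neither direction. In Y36C E7107 the medians were 38.1% and 43.3%. The call compared these same E7107 levels, so the medians describe what was selected. Length and GC content were close in the 2 sets, at 199 and 226.5 bases and at 61.9% and 61.2%.

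The largest falls from WT to Y36C under E7107 were in KDM6B, TRMT2A, BRD2, PPRC1 and GADD45A. KDM6B, a histone H3 lysine 27 demethylase, had at intron 13 (chr17:7753266-7753389) PSI from 91.9% to 98.1% in WT E7107 and from 14.8% to 41.3% in Y36C E7107, a mean difference of -71.2 points (larger adjusted p of the 2 boundaries 3.46e-07, limma). TRMT2A intron 2 (chr22:20103304-20103560) differed by -69.6 points (larger adjusted p 1.04e-06), and its DMSO medians were 2.81% and 4.70%. The same transcript holds intron 8, where the difference was -7.32 points, with an adjusted p of 0.194 at the start and 0.0254 at the end. BRD2, a bromodomain protein of the BET family, had at intron 7 (chr6:32944714-32945218) PSI from 94.9% to 96.9% in WT E7107 and 23.4% to 31.4% in Y36C E7107, a difference of -68.1 points. GADD45A, a stress response gene, had at intron 2 (chr1:68151810-68152032) 96.9% to 98.3% and 27.5% to 34.6%, a difference of -67.1 points with adjusted p of 2e-10 and 7.99e-10. PPRC1 intron 10 (chr10:103908279-103908384) differed by -67.3 points. These introns were picked for the gap between the 2 E7107 groups, and the rule required mean PSI to be higher in Y36C E7107 than in Y36C DMSO.

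At a minority of introns Y36C cells kept more of the intron under E7107 than WT cells did. CLIP4 intron 11 (chr2:29380214-29383198) had PSI from 10.99% to 53.0% in WT E7107 and 57.9% to 80.3% in Y36C E7107, a difference of 35.04 points (larger adjusted p 0.00396). Its DMSO samples did not overlap either, at 4.21% to 16.8% in WT and 21.8% to 37.9% in Y36C (adjusted p = 0.104 and 0.244, limma). DVL2, a transducer of Wnt signals, had at intron 3 (chr17:7133475-7133603) 12.5% to 32.2% and 43.5% to 65.3%, a difference of 28.2 points (larger adjusted p 0.00193), while its DMSO samples overlapped, with medians of 4.50% and 7.41%. HDAC10, a polyamine deacetylase, had at intron 17 (chr22:50684522-50684726) 19.97% to 37.6% and 49.7% to 63.8%, a difference of 28.01 points (larger adjusted p 0.00174), and its DMSO samples lay apart as well, at 7.15% to 14.9% and 18.1% to 27.3% (adjusted p = 0.204 and 0.0951, limma). ZFYVE19 intron 1 (chr15:41100067-41101316), which starts with GC in place of GT, had 41.7% to 79.1% and 75.1% to 93.0%, and its DMSO medians were already apart at 31.3% and 58.2%, with adjusted p of 0.256 and 0.254 there. NRBP2 intron 3 (chr8:144921998-144922100) differed by 27.3 points, with a call at its end boundary (adjusted p = 0.0148, limma) and none at its start (adjusted p = 0.108). Its WT E7107 samples ran from 6.25% to 57.5%, and its mean PSI with DMSO was 18.1% in WT and 41.0% in Y36C. At these 5 introns the E7107 differences are differences in level, and whether the rises differed between the genotypes was not tested.

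Among the first 20 introns, 8 were called lower in Y36C E7107 at both boundaries, 0 were called higher and 12 were called in neither direction. The 8 were in ZNF598, KMT2B, RIN1, PCNX3, ZBTB17, YDJC, TEPSIN and BTBD6, and the largest differences were -37.9 points at PCNX3 (larger adjusted p 1.36e-07) and -35.9 points at ZBTB17 (larger adjusted p 2.27e-07).

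Reads that did splice at the sites of the 789 introns mostly joined the same pair of sites. The rule required this pair to be the most used in WT DMSO. The share of spliced reads that used the intron's own pair is given first at the 5′ splice site. Over all eligible introns its medians were 99.8% in WT DMSO and Y36C DMSO, 99.9% in WT E7107 and 99.6% in Y36C E7107. In the 789 it had medians of 99.2% in WT DMSO and Y36C DMSO, of 99.998% in WT E7107 and of 97.7% in Y36C E7107. It fell by 10 points or more from DMSO to E7107 at the 5′ splice site of 49 introns in WT and 99 in Y36C (6.21% and 12.5%), beside 4.75% and 4.48% of eligible introns. At the 3′ splice site the counts were 32 and 74 (4.06% and 9.38%), beside 4.72% and 4.19%. In the spared introns the order was the other way, with 12.8% in WT and 2.48% in Y36C at the 5′ splice site.

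Near the threshold the choice rested on small differences. Just inside lay introns of PLEKHM2 (intron 17), FANCG (intron 6) and DGKQ (intron 20), and just outside introns of LARGE2 (intron 3), RNASEH2C (intron 1) and SMN2 (intron 6), all with a smallest rise that rounds to 15 points. FANCG intron 6 had mean PSI of 7.498% and 23.6% in WT and 8.31% and 31.5% in Y36C, and LARGE2 intron 3 had 15.9% and 33.5% in WT and 21.8% and 54.8% in Y36C.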

How the data were processed

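RNA of 24 HCT116 samples was sequenced in 4 groups of 6, and groups and replicate numbers were taken from the sample titles. Per the submitters' processing notes reads were aligned with STAR to hg19, with versions not given in the sources used here. The authors deposited, for each sample, a percent spliced in per splice junction and per exon-intron boundary, as the percentage of reads at a splice site, without read counts. Each file held 1830076 rows, of which 6433 (mitochondrial or without strand) were left out, and no 2 samples were identical.

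An intron ran from the base after the exon end to the base before the next exon, and GT and AG ends at 99.06% of eligible introns in GRCh37 checked this. Annotation was GENCODE 44 lifted to GRCh37, and gene list symbols were matched with RefSeq synonyms (680 of 684 found). PSI was transformed to the natural log of (PSI + 1)/(100 - PSI + 1) and tested with limma 3.58.1 in R 4.3.3, separately in the 12 DMSO and 12 E7107 samples, over all rows with reads in all 12 samples and PSI above 0 in all 6 of a group, with Benjamini-Hochberg adjustment. The fits were tested on simulated data. Named introns were the 20 with the largest smallest rise (1 per gene), the 5 genes with most members, the 5 largest differences between the E7107 groups in each direction, the shortest and longest, the 3 on each side of the threshold, up to 3 per gene list, genes the study names, and up to 5 with U12-type starts; LRCH4, tied in members, and introns called with DMSO were added after their values were seen. The members and lists were chosen with earlier results of these data known. Alternatives were other thresholds, offsets, PSI itself, no filter, a replicate block and leaving out replicates. One gene that the study follows is not reported here.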

Additional observations from a re-analysis of the deposited data

Results flagged for a closer look

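In 372 groups of 6 samples (the named introns, and the mean over all members), the highest or lowest sample stood apart from the other 5 by Dixon's criterion in 21, where chance gives about 1 in 20. No mean over all members was among them, and their part in the results was not tested beyond leaving out each replicate number. In WT DMSO the highest sample stood apart at RNF40 intron 18 (11.3%, next 6.66%), MED15 intron 15 (12.8%, next 7.83%), CDC25B intron 6 (8.85%, next 6.99%) and SMG9 intron 9 (27.0%, next 21.9%).

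In WT E7107 the highest sample stood apart at TRMT2A intron 8 (95.3%, next 87.2%), INTS11 intron 8 (58.3%, next 52.1%), MED11 intron 1 (76.8%, next 67.7%), IFRD2 intron 7 (51.3%, next 47.8%) and RBM5 intron 6 (76.0%, next 61.0%). The lowest did at TUBGCP6 intron 19 (14.9%, next 41.1%) and BRD2 intron 7 (94.9%, next 96.2%).

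In Y36C DMSO the highest sample stood apart at ZBTB17 intron 13 (29.5%, next 18.4%), IFRD2 intron 3 (8.13%, next 6.08%) and FBXW5 intron 3 (19.2%, next 12.8%), and the lowest at FBXW5 intron 7 (8.70%, next 13.0%). In Y36C E7107 the highest did at BTBD6 intron 2 (76.8%, next 62.3%), TUBGCP6 intron 24 (42.8%, next 29.7%) and JAG2 intron 7 (34.3%, next 24.5%), and the lowest at HGH1 intron 4 (63.6%, next 87.5%), INTS11 intron 8 (53.6%, next 57.7%) and ZFYVE19 intron 1 (75.1%, next 87.2%).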

How the results depend on the processing

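The number of introns moved with the threshold, to 1738 at 10 points and 400 at 20 points, and stayed near 789 with group medians (786), with the most used splice judged in each WT DMSO sample (769) and without any 1 replicate number (797 to 811). Median length was 243.5 bases with 1 intron per gene, 254 at 10 points and 200 at 20 points, and median GC content was 59.9%, 59.8% and 62.3% in the same order. In Y36C DMSO against WT DMSO, boundaries called higher numbered 3 with an offset of 0.1 points, 21 with 5 points and 27 with PSI itself, and those called lower 0, 3 and 5. Leaving out any 1 of the 6 replicate numbers left 2 to 6 higher and 0 to 1 lower. Each number thus changed the count of higher calls by over 1.5 times, and the reason was not tested. In Y36C E7107 against WT E7107, boundaries called higher ranged from 61 to 88 and lower from 694 to 769 over the alternatives. Of 1840 values at 184 boundaries of named introns in that comparison, 56 lost and 30 gained a call and 0 changed direction with a call. With DMSO, 26 of 1750 values lost and 8 gained a call and 0 changed direction with one.

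Replicate numbers are shared between groups but did not pair the samples: same-numbered samples had correlations of their deviations from the group means between -0.00148 and 0.00422 with DMSO and between -0.00196 and 0.00387 with E7107, and 0 and 2 of 6 samples went best with their own number. With a replicate block, 0 boundaries were called higher and 0 lower with DMSO, and 63 higher and 701 lower with E7107.

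Percentages without read counts leave the precision of each PSI unknown. At CAMK2N2, where the samples of a group spread widely, a difference of -6.30 points between the E7107 groups was not detectable (adjusted p = 0.472 and 0.708, limma).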
